A study of Mus musculus with 24 samples.

Results

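The Ccl21 gene-copy cluster of mouse chromosome 4 is described here through 10 genes, taken by symbol from the count tables out of 55254 genes: Ccl21b, Ccl21d, Gm13301, Gm13303, Gm13304, Gm13307, Gm3893, Gm17167, Gm5859 and Gm21093. The genes were selected on their fold changes between genotypes, seen earlier in these same libraries. Their differences between genotypes are therefore given as a description, with fold changes and errors. Counts of members past a threshold in the main analysis are printed beside the share of all genes, except those at an unadjusted p. Counts under other settings or tools, or with libraries left out, are printed without that share. All of these counts support nothing. RNA was sequenced from nuclei of the hippocampus of male C57BL/6N mice aged 6 months, sorted by the neuronal antigen NeuN into NeuN+ (neuronal) and NeuN- (non-neuronal) nuclei. The 4 genotypes were WT, Mutyh-/-, Ogg1-/- and DKO, the last made by crossing both single knockouts, with 3 libraries of each genotype and fraction and 24 libraries in all. Per the labels, mice of every group had standard home-cage housing and the same background. Per the study's methods, nuclei of several animals of a genotype were pooled. Its statistics section speaks of at least 3 independent biological replicates, without naming the RNA libraries. Whether the 3 libraries of a group are separate pools is not spelled out there. The p-values therefore measure the spread between these libraries, which may be technical.

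CCL21 is a chemokine made mainly by lymphatic endothelium and by stromal cells of lymph nodes, where it binds the receptor CCR7 and guides T cells and dendritic cells. The mouse carries several Ccl21 genes in a duplicated stretch of chromosome 4, beside genes for its sister ligand CCL19 and for CCL27, and the encoded proteins are nearly the same. OGG1 and MUTYH are DNA glycosylases that start the repair of oxidised guanine, the first by removing the damaged base and the second by removing adenine paired with it.

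Total counts ran from 56563586 to 96192142 per library, and the cluster took between 0.00763% and 0.232% of them. The Ogg1 gene count did not separate the genotypes (3.04 ± 0.477 CPM in WT and 3.15 ± 0.197 CPM in Ogg1-/-, NeuN+, SD, n = 3; CPM is the count scaled to library size with TMM factors), so a gene-level count gives no check of the Ogg1 label. The Mutyh count was higher, not lower, in the libraries labelled Mutyh-/- (10.1 ± 0.915 CPM) and DKO (9.08 ± 1.79 CPM) than in WT (1.14 ± 0.0738 CPM) of NeuN+, with an adjusted p of 2.34e-08 for Mutyh-/- by edgeR's quasi-likelihood test. Genotype names below are therefore those of the libraries' labels, and every direction rests on them. The sorted fractions carried their defining markers, with 5 neuronal markers summing to 4076 to 4793 CPM in NeuN+ and 277.7 to 411.3 CPM in NeuN- libraries.

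Only 3 of the 10 genes, Ccl21b, Ccl21d and Gm13304, shared transcript sequence with a Ccl21 gene. The members lie within 363.2 kb, between positions 41893278 and 42256432 of chromosome 4 (GRCm38), with 7 on the plus and 3 on the minus strand. GENCODE vM21 lists 5 as protein-coding, 3 as pseudogenes and 2 as noncoding transcripts. Annotated transcripts were cut into windows of 100 bases, and each window was looked up in the transcripts of all other genes. Every window of Ccl21b and Gm13304, and 95.7% of those of Ccl21d, occurred in another of these 3 genes, and none occurred in the other 7 members. Gm17167, Gm13301, Gm5859, Gm3893, Gm13303 and Gm21093 formed a second family, in which Gm3893 shared 84% of its windows with Gm13303 and Gm5859 shared 65.8% with Gm17167. Gm13307, an antisense transcript over Ccl21d, shared 9.17% of its windows with another member, Gm17167.

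**Figure D1:**
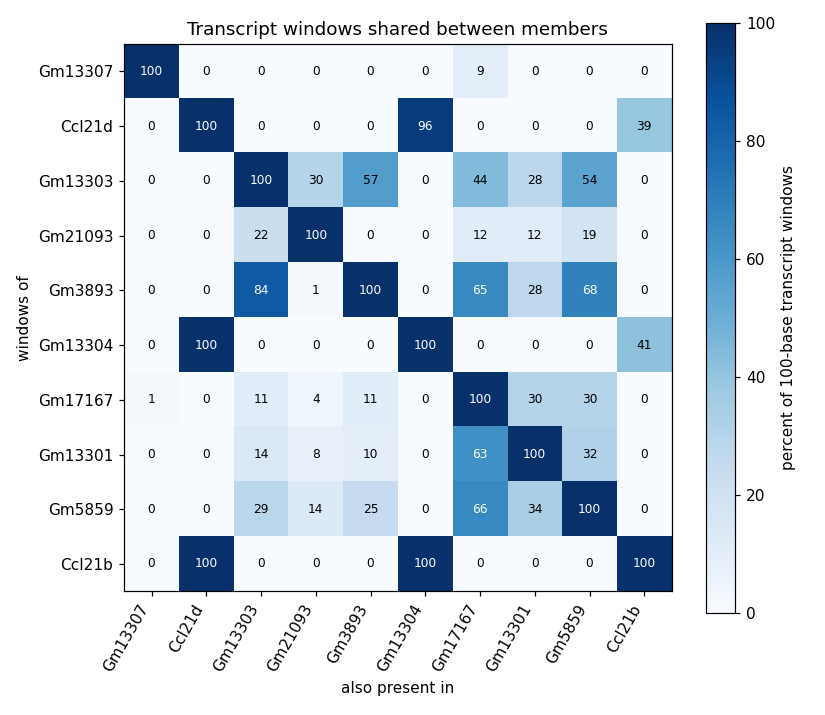
Percent of the 100-base transcript windows of each member (rows) that also occur in each other member (columns), in chromosome order; the diagonal is 100 by definition. Among the members, Ccl21d, Gm13304 and Ccl21b share windows only with each other, and 6 Gm genes form a second block.

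Read pairs from such windows cannot be tied to a single copy by sequence alone. No member was free of shared windows, with the whole genome's transcripts as reference: the share found in some other gene was 100% for Ccl21b, Gm13304, Gm13303 and Gm21093, 97.5% for Gm3893, 96.9% for Ccl21d, 81.7% for Gm13301, 76.9% for Gm5859, 62.4% for Gm13307 and 58.6% for Gm17167. How the authors' counting treated pairs that align to several places, and strand, is not given in the sources used here. The level of any single member is therefore uncertain, and the split of reads among members cannot be told apart from unequal transcription. Gm17167 and Gm13301 also overlap on the same strand, sharing 1312 exon bases, and the gene span of Gm13307 covers Ccl21d on the opposite strand without sharing exon bases.

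The promoters of Ccl21d and Gm13304 were nearly the same too. RefSeq (GRCm38.p6) gave a promoter for 3 of the 10 members. The 250 bases before the starts of Ccl21d and Gm13304 are printed beside those of Ccl21a, a non-member with almost the same sequence upstream. Results for Ccl21a are given below. Ccl21d and Gm13304 were selected on their differences between genotypes, and a link of promoters to those differences was not tested. Of the transcript windows of Ccl21d 50.3%, and of those of Gm13304 51.4%, also occurred in Ccl21a, so its count is uncertain too. Capitals mark the positions where the 3 sequences differ from each other.
Ccl21d, chr4:41903363-41903612, plus strand: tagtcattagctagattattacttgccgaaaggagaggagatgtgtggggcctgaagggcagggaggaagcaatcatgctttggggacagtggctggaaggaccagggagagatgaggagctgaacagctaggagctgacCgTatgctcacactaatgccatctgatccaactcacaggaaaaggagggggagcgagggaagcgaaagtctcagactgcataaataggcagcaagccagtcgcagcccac
Gm13304, chr4:42114537-42114786, plus strand: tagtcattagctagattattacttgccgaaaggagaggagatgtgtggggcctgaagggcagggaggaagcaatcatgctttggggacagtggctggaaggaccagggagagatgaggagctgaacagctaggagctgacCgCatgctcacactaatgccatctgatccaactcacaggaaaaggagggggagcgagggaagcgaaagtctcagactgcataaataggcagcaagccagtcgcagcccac
Ccl21a, chr4:42773992-42774241, minus strand: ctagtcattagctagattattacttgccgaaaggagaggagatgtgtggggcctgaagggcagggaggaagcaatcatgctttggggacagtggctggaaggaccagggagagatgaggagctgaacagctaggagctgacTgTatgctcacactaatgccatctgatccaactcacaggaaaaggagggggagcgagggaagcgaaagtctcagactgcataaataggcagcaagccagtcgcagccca
Ccl21d differed from Gm13304 at 1 of 250 bases and from Ccl21a at 1 of 249 aligned bases. The promoter of the neighbour Gm10591 was identical to that of Gm13304 over 250 bases. The RefSeq start of Ccl21b does not lie at the gene's GENCODE position, and its upstream 250 bases matched Ccl21d at 33.1% of bases, so it is not shown.

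In WT, every member was higher in neuronal than in non-neuronal nuclei. Summed over the 10 genes, NeuN+ libraries held 259.8, 246.1 and 268.0 CPM and NeuN- libraries 76.98, 80.95 and 90.67 CPM, a ratio of means of 3.11 with no overlap. These CPM were scaled within each fraction, so the ratio is approximate. It is not on the scale of the test that follows, in which all 24 libraries were scaled together. By edgeR's quasi-likelihood test over 33523 genes, 10 of 10 members were called higher in NeuN+ (adjusted p under 0.05, absolute log2 fold change above 1), against 21.3% of all genes, while 21.6% were higher in NeuN-. The difference ran from 1.33 ± 0.24 (log2, SE) for Ccl21d to 2.41 ± 0.0855 for Gm21093, with adjusted p of 3.61e-05 and 4.06e-17. The neighbouring genes within 1 Mb leaned the same way, with 35 of 79 called higher in NeuN+ and 4 higher in NeuN-. The labels place the fractions on different sequencing lanes, so an effect of lane cannot be told apart from one of cell type, nor can more expressing nuclei and more RNA per nucleus.

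Levels per length ordered the members differently from their counts. On the scale of mean CPM per kb of exon in WT NeuN+ nuclei, the antisense transcript Gm13307 was highest at 96.6 ± 3.11 (SD, n = 3), ahead of the noncoding transcript Gm17167 at 20.0 ± 1.82 and of Gm21093, a predicted protein-coding gene, at 16.0 ± 0.315. Gm13303 (7.70 ± 0.711), Ccl21b (6.70 ± 0.485) and Gm13301 (6.54 ± 0.296) followed, and the spread of Ccl21b overlapped with that of each of the other 2, which did not overlap with each other. Ccl21d was lowest at 1.63 ± 0.0967. In WT NeuN- nuclei Gm13307 was again highest, at 36.4 ± 3.55 CPM per kb, and Gm3893 and Ccl21d were lowest at 0.756 ± 0.252 and 0.758 ± 0.155, within their spread of each other. Because copies share reads, this order holds for the counted reads and not for the single genes.

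All 10 members were highest in the libraries labelled Ogg1-/-, next in Mutyh-/-, and nearest WT in DKO, in both kinds of nuclei. The ratio of mean CPM of DKO to WT ran from 1.096 (Gm21093) to 1.87 (Gm3893) in NeuN+. In NeuN- it ran from 1.002 to 2.29 for the same genes. Over the 10 genes the NeuN+ libraries summed to 259.8, 246.1 and 268.0 CPM in WT, 728.0, 760.4 and 702.3 CPM in Mutyh-/-, 2171, 2338 and 2190 CPM in Ogg1-/-, and 291.5, 287.7 and 397.5 CPM in DKO. The sums were 2.83 times the WT mean in Mutyh-/-, 8.66 times in Ogg1-/- and 1.26 times in DKO. In NeuN- nuclei the sums were 293.0, 295.8 and 291.5 CPM in Mutyh-/-, 988.5, 1073 and 881.5 CPM in Ogg1-/-, and 94.37, 85.04 and 144.4 CPM in DKO, or 3.54, 11.8 and 1.30 times WT. The summed levels of Mutyh-/- and Ogg1-/- libraries overlapped neither with each other nor with WT or DKO in either fraction. For each of the 10 members in both fractions, all 3 Mutyh-/- libraries lay above all 3 WT libraries, as for 10.3% of all genes in NeuN+ and 9.02% in NeuN-, and all 3 Ogg1-/- libraries above WT, as for 9.07% and 9.12%. The Ogg1-/- libraries also lay above those of Mutyh-/- for all 10 (9.63% and 8.05% of all genes), and those of DKO below Mutyh-/- (4.94% and 6.58%). The order of the group means, from WT through DKO and Mutyh-/- to Ogg1-/-, was the same for 10 of 10 members in both fractions. Gm17167 alone made up 39.2% of the sum in WT NeuN+ and 55.3% in Ogg1-/- NeuN+, and without it the ratio of Ogg1-/- to WT was 6.36 in NeuN+ and 8.59 in NeuN-.

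**Figure D2:**
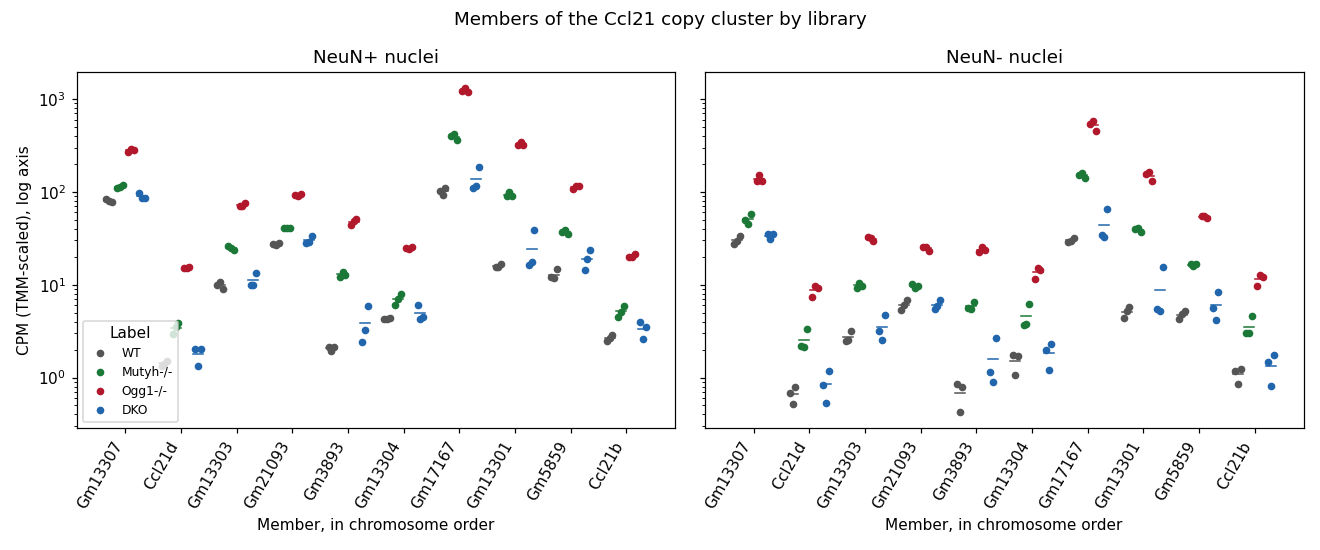
CPM of each member (x axis, chromosome order) in each library on a log axis, NeuN+ left and NeuN- right; points are libraries, short lines group means (n = 3), colours the label. For every member the 3 Ogg1-/- libraries lie above the 3 Mutyh-/- libraries, which lie above those of WT and DKO.

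Among the chemokine copies, Ccl21b encodes the leucine form of CCL21. In NeuN+ nuclei its libraries held 2.50, 2.70 and 2.89 CPM in WT, 4.44, 5.08 and 5.94 CPM in Mutyh-/-, 20.0, 19.9 and 21.6 CPM in Ogg1-/-, and 3.98, 2.62 and 3.47 CPM in DKO. The Ogg1-/- libraries stood far above the rest, those of Mutyh-/- above WT by less, and DKO overlapped with WT. The log2 fold change of Ccl21b against WT was 0.94 ± 0.14 (SE) in Mutyh-/-, 2.93 ± 0.13 in Ogg1-/- and 0.32 ± 0.14 in DKO. In NeuN- nuclei Ccl21b held 1.17, 0.850 and 1.23 CPM in WT, 2.99, 3.05 and 4.58 CPM in Mutyh-/-, 9.77, 12.6 and 12.0 CPM in Ogg1-/-, and 1.47, 0.813 and 1.73 CPM in DKO. The same groups were apart there, with fold changes of 1.70 ± 0.25, 3.39 ± 0.25 and 0.30 ± 0.26 for Ccl21b.

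Ccl21d, a further protein-coding CCL21 copy, held 1.337, 1.408 and 1.504 CPM in WT NeuN+, 2.94, 3.46 and 3.84 CPM in Mutyh-/-, 15.1, 15.0 and 15.6 CPM in Ogg1-/-, and 2.03, 1.34 and 2.02 CPM in DKO. Its log2 fold changes were 1.27 ± 0.14, 3.43 ± 0.13 and 0.34 ± 0.15, the largest of the chemokine copies in Ogg1-/-. Gm13304, also protein-coding, went from 4.31, 4.22 and 4.36 CPM in WT NeuN+ to 6.07, 7.07 and 7.87 CPM in Mutyh-/- and 24.8, 24.5 and 25.2 CPM in Ogg1-/-. Its DKO libraries, at 6.03, 4.32 and 4.53 CPM, overlapped with WT, and the highest lay just below the lowest of Mutyh-/-. In NeuN- nuclei the fold changes against WT were 1.94 ± 0.26, 3.72 ± 0.26 and 0.34 ± 0.29 for Ccl21d, and 1.58 ± 0.26, 3.16 ± 0.27 and 0.26 ± 0.28 for Gm13304. Ccl21d held 0.677, 0.516 and 0.784 CPM in WT, 2.19, 2.12 and 3.37 CPM in Mutyh-/-, 7.39, 9.74 and 9.24 CPM in Ogg1-/-, and 0.828, 0.531 and 1.17 CPM in DKO in NeuN-. Gm13304 held 1.77, 1.08 and 1.71 CPM in WT, 3.71, 3.76 and 6.24 CPM in Mutyh-/-, 11.6, 15.3 and 14.4 CPM in Ogg1-/-, and 1.98, 1.20 and 2.32 CPM in DKO there. All 3 chemokine copies kept the order of the group means in both fractions, and DKO overlapped with WT in each.

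The second family held the largest ratios, and its member Gm17167 had the highest CPM of the members in NeuN+ nuclei. Gm17167, a noncoding processed transcript, held 101.5, 91.6 and 109.9 CPM in WT NeuN+, 395.4, 415.5 and 362.6 CPM in Mutyh-/-, 1207, 1314 and 1183 CPM in Ogg1-/-, and 110.3, 116.2 and 186.4 CPM in DKO. Its fold changes against WT were 1.95 ± 0.15, 3.61 ± 0.16 and 0.45 ± 0.14 on the log2 scale, and the first and second DKO libraries lay just beyond the highest WT library. In NeuN- nuclei Gm17167 held 28.6, 29.8 and 31.6 CPM in WT, 152.2, 159.7 and 139.5 CPM in Mutyh-/-, 539.0, 584.8 and 456.5 CPM in Ogg1-/-, and 34.2, 32.7 and 65.9 CPM in DKO, and the lowest DKO library lay above the highest of WT. Gm3893, listed as protein-coding, had the largest ratio of mean CPM of Ogg1-/- to WT among members, 23.2 in NeuN+ and 34.6 in NeuN-. Its NeuN- libraries held 0.841, 0.425 and 0.797 CPM in WT, 5.59, 5.50 and 6.51 CPM in Mutyh-/-, 22.7, 25.2 and 23.5 CPM in Ogg1-/-, and 1.14, 0.896 and 2.69 CPM in DKO. Its WT mean there, 0.688 CPM, was the second lowest of the members, and its log2 fold changes were 3.06 ± 0.33, 5.08 ± 0.33 and 1.15 ± 0.35.

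Gm13301, a transcribed pseudogene that overlaps Gm17167, came next, with 15.6, 15.6 and 16.8 CPM in WT NeuN+, 91.4, 98.7 and 90.1 CPM in Mutyh-/-, and 321.7, 346.6 and 322.6 CPM in Ogg1-/-. Its NeuN+ fold changes were 2.54 ± 0.23 and 4.37 ± 0.24, with no overlap among the 3 groups. The pseudogenes Gm5859 and Gm13303 were intermediate, at 1.54 ± 0.13 and 1.33 ± 0.10 in Mutyh-/- and 3.13 ± 0.14 and 2.87 ± 0.105 in Ogg1-/- of NeuN+ nuclei. Gm5859 held 11.96, 11.8 and 14.7 CPM in WT, 37.3, 39.2 and 35.4 CPM in Mutyh-/-, 106.3, 116.1 and 114.8 CPM in Ogg1-/-, and 14.5, 18.9 and 23.7 CPM in DKO in NeuN+, with DKO overlapping WT only in its lowest library. Gm13303 held 9.98, 10.8 and 8.93 CPM in WT, 26.1, 24.97 and 23.7 CPM in Mutyh-/-, 70.3, 70.4 and 76.2 CPM in Ogg1-/-, and 10.02, 9.81 and 13.5 CPM in DKO in NeuN+, where DKO and WT overlapped. Gm21093, which shares all its windows with the neighbour Gm3883, had the smallest change in Ogg1-/- of the 10 genes, from 27.2, 27.0 and 28.0 CPM in WT NeuN+ to 92.6, 91.4 and 94.3 CPM, or 1.76 ± 0.0605. In NeuN- nuclei Gm21093 held 5.30, 6.08 and 6.90 CPM in WT, 10.1, 9.31 and 9.63 CPM in Mutyh-/-, 25.4, 25.5 and 22.8 CPM in Ogg1-/-, and 5.51, 5.93 and 6.87 CPM in DKO, and DKO lay within the range of WT.

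The antisense transcript Gm13307 stood with Gm21093 at the low end. Its NeuN+ libraries held 83.3, 79.1 and 78.6 CPM in WT, 110.9, 111.8 and 119.2 CPM in Mutyh-/-, 269.3, 290.6 and 285.8 CPM in Ogg1-/-, and 97.5, 84.9 and 85.6 CPM in DKO. The fold changes of Gm13307 were 0.51 ± 0.0576, 1.81 ± 0.0588 and 0.15 ± 0.0575. In NeuN- nuclei Gm13307 held 27.6, 29.8 and 33.4 CPM in WT, 50.2, 45.6 and 58.4 CPM in Mutyh-/-, 129.8, 150.3 and 130.5 CPM in Ogg1-/-, and 35.04, 31.1 and 35.05 CPM in DKO, with fold changes of 0.76 ± 0.0990, 2.18 ± 0.10 and 0.16 ± 0.0991. The members with the highest WT level per length, Gm13307, Gm17167 and Gm21093, were thus not alike in their fold changes.

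**Figure D3:**
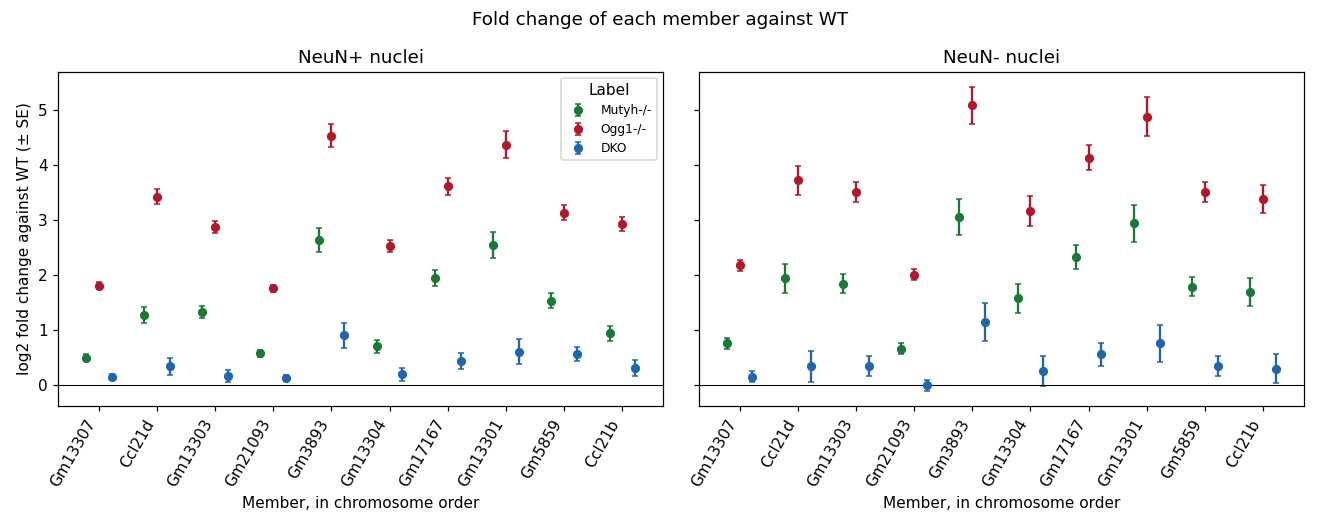
Log2 fold change against WT with its SE for each member in chromosome order, NeuN+ left and NeuN- right, by label. Ogg1-/- runs from 1.76 (Gm21093) to 4.54 (Gm3893) in NeuN+ and from 2.01 to 5.08 in NeuN-, with Mutyh-/- below it and DKO nearest 0 at every member.

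Counted by the study's threshold for a differentially expressed gene, DEG (adjusted p under 0.05 and absolute log2 fold change above 0.5), 10 of 10 members were higher in Mutyh-/- than in WT in NeuN+ and in NeuN- nuclei, where 0.295% and 0.166% of all genes were. In Ogg1-/- the count was also 10 of 10 in both, against 0.183% and 0.129% of all genes. The listing of the genes used these contrasts, so the counts are no evidence beyond the list itself. The median log2 fold change of the members was 1.30 in Mutyh-/- and 3.03 in Ogg1-/- of NeuN+, and 1.82 and 3.51 in NeuN-, where the medians of all genes lay between -0.0086 and 0.0086. Without WT replicate 1, 6 of 10 members were called in Mutyh-/- of NeuN- nuclei, since Ccl21b, Ccl21d, Gm13304 and Gm21093 then missed the threshold. In Mutyh-/- of NeuN+ nuclei Gm13307 missed it without WT replicate 3 (0.49) or Mutyh-/- replicate 3 (0.4717). Gm13304 missed it there without WT replicate 1 or 2.

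In DKO no member was a DEG against WT. By edgeR 8 of 10 in NeuN+ and 3 of 10 in NeuN- had an unadjusted p under 0.05. The share of all genes at that threshold was not counted, and members share reads, so these 2 counts support nothing. DESeq2 called 2 members as DEGs in NeuN+ (Gm3893 and Gm5859) and 0 in NeuN-. Of all genes, 0.0564% and 0.0534% were DEGs higher in DKO by edgeR. The fold changes ran from 0.13 (Gm21093) to 0.91 (Gm3893) in NeuN+ and from 0.00060 to 1.15 in NeuN- for the same genes, with medians of 0.33 and 0.34. All 3 DKO libraries lay above all 3 WT libraries for 4 members in NeuN+, against 7.33% of all genes, and for 2 in NeuN-, against 7.8%. The fold change of Gm21093 in NeuN- was near 0 and ran from -0.0941 to 0.0992 with single libraries left out. Without DKO replicate 1, Gm3893 (1.15) and Gm5859 (0.73) became DEGs in NeuN+ nuclei. Without DKO replicate 3, the fold change of Gm13301 was 0.0972 in NeuN+ and 0.0575 in NeuN-, that of Gm17167 0.1661 and 0.1605, and that of Gm3893 0.4734 and 0.5546, and no member was a DEG.

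The DKO libraries were not alike. Replicate 3 of DKO held more Gm13301 than the mean of the other 2 libraries by a factor of 2.29 in NeuN+ and 2.96 in NeuN- nuclei, with 39.1 CPM against 16.5 and 17.7 CPM in NeuN+, and 15.6 CPM against 5.43 and 5.15 CPM in NeuN-. Gm3893 followed with factors of 2.04 and 2.65, and Gm17167 with 1.65 and 1.97. The factor was 1.42 and 1.70 for Gm5859 and 1.36 and 1.64 for Gm13303. These genes belong to the second sequence family, and they held the same order in both fractions. Gm21093, also of that family, had lower factors of 1.18 and 1.20, and Gm13307 had 0.939 and 1.06. The chemokine copies were split by fraction, with Ccl21b at 1.05, Ccl21d at 1.20 and Gm13304 at 0.876 in NeuN+ but at 1.52, 1.72 and 1.46 in NeuN-, where Ccl21d lay above Gm5859. DKO replicate 2 was the lowest DKO library for these copies, with factors of 0.7029, 0.6639 and 0.8183 in NeuN+. In NeuN- its factors were 0.5079, 0.5325 and 0.5566, and it enters the mean to which replicate 3 is compared. Replicate 3 was the highest DKO library for 6 members in NeuN+ and 10 in NeuN-, and whether its NeuN+ and NeuN- libraries come from the same pool of animals is not given in the sources used here, so the fractions may not be independent. Its NeuN- library was also highest in choroid plexus markers, whose 3 genes summed to 197.6 CPM against 59.5 and 6.40 CPM in the other DKO libraries, and their part in the result was not tested, while in NeuN+ these markers spanned 11.9 to 13.4 CPM over the DKO libraries.

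Mutyh-/- replicate 3 differed from its group mainly in the chemokine copies, which also varied within other groups. It exceeded the mean of the other 2 libraries by factors of 1.25 (Ccl21b), 1.20 (Ccl21d) and 1.199 (Gm13304) in NeuN+ and of 1.52, 1.57 and 1.67 in NeuN- nuclei. For Gm17167 the factors were 0.894 in both fractions and for Gm13301 0.948 and 0.918. The other members had factors of 0.926 to 1.22, and the sums over all members were 702.3 CPM against 728.0 and 760.4 CPM in NeuN+. In NeuN- nuclei WT replicate 2 had factors of 0.7075, 0.7058 and 0.6199 for Ccl21b, Ccl21d and Gm13304. Those of Ogg1-/- replicate 1 there were 0.7959, 0.7788 and 0.7824, and DKO replicate 2 was low in both fractions, as given above. Spread within groups was widest in DKO, with a median SD of 21.2% of the mean over the 10 members in NeuN+ and 35.0% in NeuN-, and narrowest in Ogg1-/- of NeuN+ at 4.47%. These ratios describe single libraries and were not tested.

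**Figure D4:**
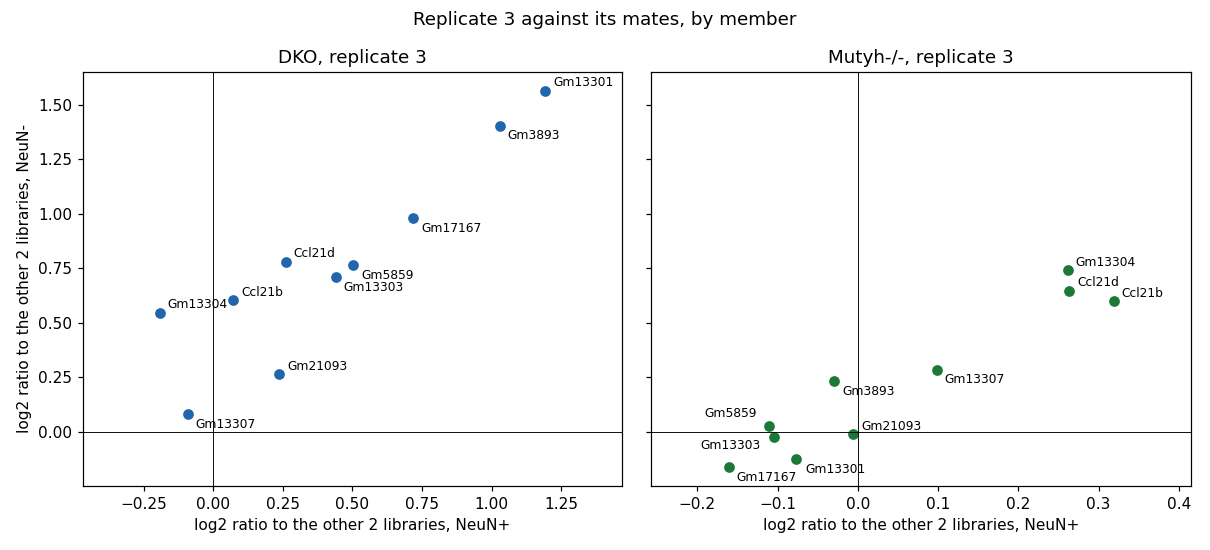
Log2 ratio of replicate 3 to the mean of the other 2 libraries of its group for each member, NeuN+ on the x axis and NeuN- on the y axis, DKO left and Mutyh-/- right. In DKO Gm13301 and Gm3893 lie highest in both fractions; in Mutyh-/- the chemokine copies Ccl21b, Ccl21d and Gm13304 do.

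Between knockouts, 10 of 10 members were higher in Ogg1-/- than in Mutyh-/- in both fractions, with log2 differences of 1.18 to 2.15 in NeuN+ and 1.34 to 2.02 in NeuN- nuclei, where 0.252% and 0.289% of all genes were DEGs in that direction. DKO lay below Ogg1-/- in 10 of 10 in both, against 0.163% and 0.104% of all genes. DKO lay below Mutyh-/- in 6 members of NeuN+ and 8 of NeuN-, against 0.106% and 0.0942%. In NeuN+ the chemokine copies Ccl21b (-0.62 ± 0.13) and Gm13304 (-0.50 ± 0.11), with Gm13307 and Gm21093, were the members that missed the threshold. When only the compared groups entered the fit, these last counts were 2 and 0, while DESeq2 gave 7 and 10. Leaving out Mutyh-/- replicate 1 left 1 called member in NeuN-, without Mutyh-/- replicate 2 it was 4, and without DKO replicate 1 or 2 it was 3.

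The excess over WT in Ogg1-/- stood in a similar ratio to that in Mutyh-/- for most members. The mean CPM above WT in Ogg1-/- was 4.00 to 5.15 times that in Mutyh-/- over the 10 members in NeuN- nuclei. In NeuN+ nuclei the same ratio ran from 3.91 for Gm17167 to 4.82 for Gm21093 in the second family, and was 5.99 for Gm13307 and 7.25, 6.93 and 7.59 for Ccl21b, Ccl21d and Gm13304. The 3 chemokine copies had the highest ratios in NeuN+ nuclei, and values of 4.00 to 4.28 in NeuN-. The WT libraries enter both excesses, and the ratio was not tested.

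The effect of each genotype was next compared between NeuN+ and NeuN- nuclei. No member had an interaction of genotype and cell type by edgeR or by DESeq2 (adjusted p under 0.05, edgeR called 0.0209%, 0.0537% and 0.0567% of all genes for Mutyh-/-, Ogg1-/- and DKO). By edgeR 5, 4 and 0 members had an unadjusted p under 0.05, a threshold at which the share of all genes was not counted. All 10 estimates for Mutyh-/- and all 10 for Ogg1-/- were negative, that is, the fold change was smaller in NeuN+. For Gm13304 in Mutyh-/- the interaction was -0.88 on the log2 scale (95% interval -1.46 to -0.30, adjusted p 0.386), and for Gm13303 in Ogg1-/- it was -0.64 (-1.03 to -0.24, adjusted p 0.4999). For Gm21093 the interval in Mutyh-/- ran from -0.33 to 0.12. The fold changes of the fractions were therefore not shown to differ, nor were they shown to be alike.

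The members were not the only genes of the region that differed. Of the genes within 1 Mb of the outermost members, 88 were in the count tables, and 76 were tested in NeuN+ and 79 in NeuN- nuclei. In Mutyh-/-, 6 were DEGs higher than WT in each fraction (7.89% in NeuN+ and 7.59% in NeuN-), against 0.295% and 0.166% of all genes. In Ogg1-/-, 22 were in NeuN+ and 13 in NeuN- (28.9% and 16.5%), against 0.183% and 0.129% of all genes. None of the neighbours was lower by edgeR, and DKO had 0 DEGs in both, with 16 and 9 neighbours at an unadjusted p under 0.05 and 0 DEGs by DESeq2. The share of all genes at that unadjusted p was not counted. Between the outermost members, 9 of 12 tested neighbours were DEGs in Ogg1-/- of NeuN+ nuclei, and 13 of 64 beyond them. Without WT replicate 1, 2 neighbours were called in Mutyh-/- of NeuN-, and without DKO replicate 1, 2 in NeuN+ and 1 in NeuN- were called in DKO. Neighbours that are copies share windows with members and so are not independent of them.

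The 6 neighbours called in Mutyh-/- were the same genes in both fractions and were also called in Ogg1-/-: Gm10601, Gm13302, Gm17081, Gm10600, Gm3883 and Gm10591. Gm10600, listed as protein-coding, held 0.710, 0.440 and 0.809 CPM in WT NeuN-, 9.20, 9.77 and 10.9 CPM in Mutyh-/-, 40.3, 44.1 and 37.8 CPM in Ogg1-/-, and 0.552, 1.20 and 4.36 CPM in DKO. Its log2 fold change in Ogg1-/- was 5.94 ± 0.54 (edgeR, adjusted p 0.000147), above that of every member. The pseudogene Gm10601 lies at -397.9 kb from the start of Gm17167, outside the outermost members, and rose by 5.32 ± 0.40 in Ogg1-/- of NeuN+ (edgeR, adjusted p 1.10e-06), from 1.103 ± 0.115 to 44.2 ± 2.63 CPM (SD, n = 3). DKO replicate 3 was also the highest DKO library for Gm10601, at 5.01 CPM against 0.915 and 1.40 CPM in NeuN+. Gm10591, the copy whose promoter equals that of Gm13304, rose by 2.61 ± 0.13 in Ogg1-/- of NeuN+ (edgeR, adjusted p 5.15e-09), and Gm13304 by 2.53 ± 0.11. All windows of Ccl21b and 41.1% of those of Gm13304 also occur in Gm10591. Its count and p-value are therefore not independent of members selected on this contrast, and a link to the promoter was not tested.

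A second set of neighbours moved by less. In Ogg1-/- of NeuN+ nuclei Fam205a4 rose by 1.19 ± 0.0591 (edgeR, adjusted p 7.62e-09), Fam205a3 by 1.20 ± 0.0630 (1.63e-08) and Fam205a2 by 0.88 ± 0.0636 (7.83e-07). Gm2163, which shares 97.5% of the windows of Gm3893, rose by 1.68 ± 0.11 (adjusted p 3.97e-07), and Gm20878 by 0.86 ± 0.0596 (4.43e-07). The outermost DEGs were Cntfr, a ciliary neurotrophic factor receptor gene at -549.5 kb from the start of Gm17167, with 0.97 ± 0.11 (adjusted p 0.000196), and Fam205a1 at 641.1 kb, with 0.63 ± 0.0974 (0.00535), and both were singled out after their values were seen. Il11ra1 and Ccl27a, which lie between Cntfr and the cluster, were not DEGs, with 0.07 ± 0.0664 (adjusted p 0.728) and 0.20 ± 0.0568 (0.125). The larger changes were thus interleaved with genes of smaller or no called change, and no tested gene beyond Cntfr and Fam205a1 in the 1 Mb windows was a DEG against WT by edgeR.

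**Figure D5:**
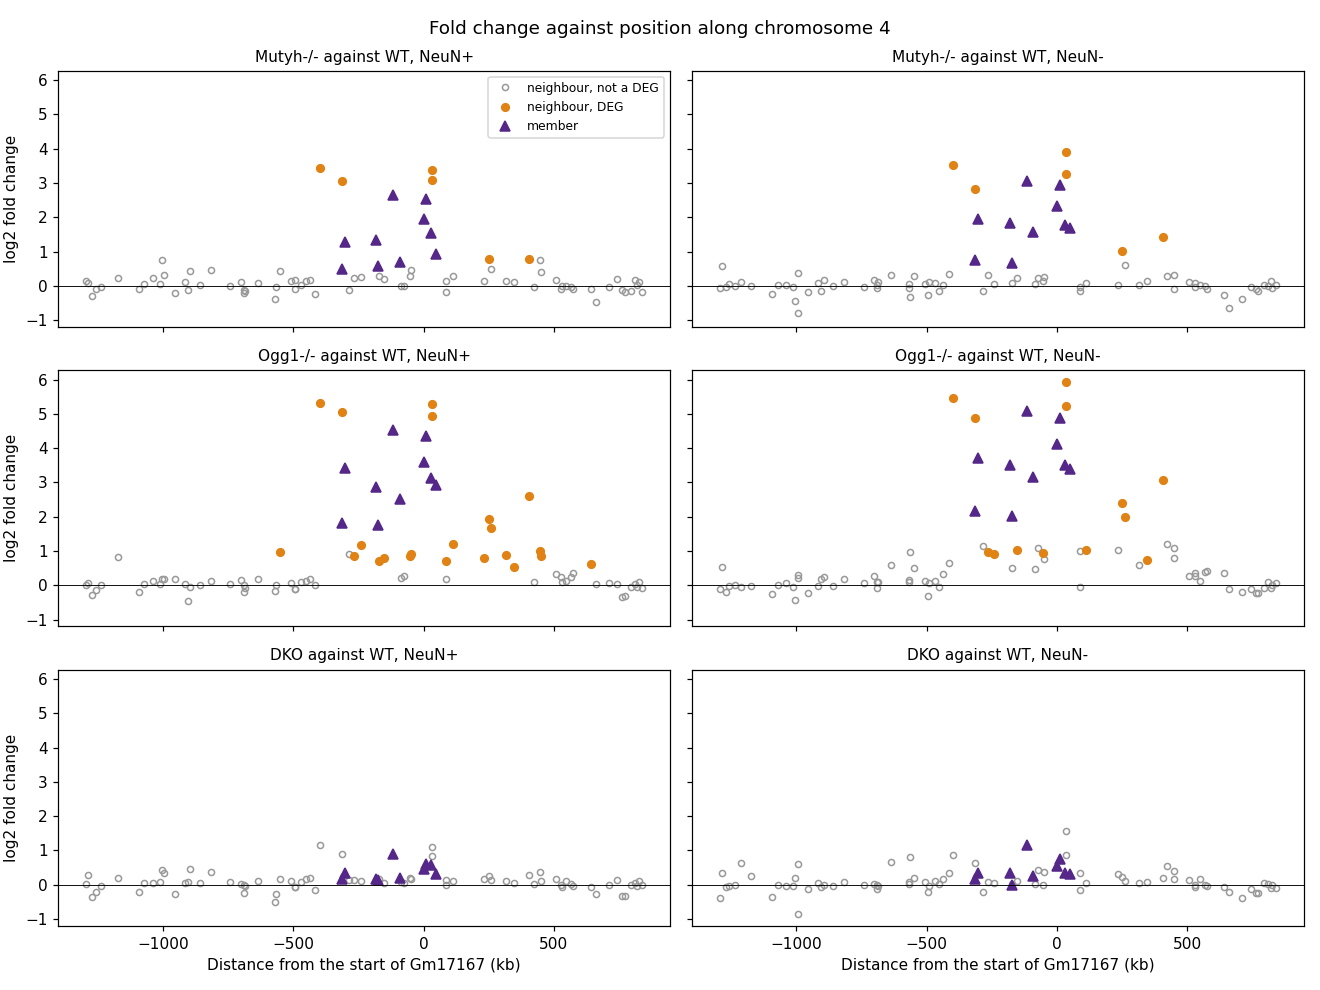
Log2 fold change against WT by distance in kb from the start of Gm17167 for each tested gene within 1 Mb of the outermost members, a row for each knockout label and a column for each fraction. Triangles are members, filled circles neighbours that are DEGs, open circles other neighbours; DEGs span -549.5 to 641.1 kb in Ogg1-/- of NeuN+, and DKO has none.

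The genes most like the members across libraries lay in the same region where they had a position. Over the 12 libraries of a fraction, the Pearson correlation of log2 CPM with the summed members was 0.994 for BX666061.1, 0.991 for Gm3883, 0.989 for Gm50470 and 0.987 for Gm13302 and Gm17081 in NeuN+. In NeuN- it was 0.995 for Gm13302, 0.993 for Gm17081 and Gm3883, 0.990 for Gm50470 and 0.987 for Gm10601. The libraries fall into 4 genotypes, so each value mostly reflects the order of the groups, and copies share reads. BX666061.1 and Gm50470 were not placed by symbol here. In NeuN+ nuclei Gm50470 held 3.52 ± 0.401 CPM in WT and 6.26 ± 4.27 CPM in DKO (SD, n = 3), against 26.9 ± 0.847 CPM in Mutyh-/- and 111.4 ± 5.94 CPM in Ogg1-/-.

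The remaining genes of the CCR7 axis and its chromosome 4 relatives mostly did not pass the test. Of 12 listed genes 11 were in the files and 10 were tested in each fraction. In Ogg1-/- of NeuN+ nuclei 2 were DEGs, Ccl27b, a copy of the skin chemokine CCL27, at 0.99 ± 0.20 (edgeR, adjusted p 0.0299), and Il11ra2, an interleukin-11 receptor copy, at 0.85 ± 0.16 (adjusted p 0.0234). Outside that comparison edgeR called 0 of 10, with 1 to 6 genes at an unadjusted p under 0.05, while DESeq2 called 1 in Mutyh-/- of NeuN+ and 1 in Ogg1-/- of NeuN-. Ccl21a, which encodes the serine form of CCL21 and lies on the same chromosome with nearly the promoter of Ccl21d, held 6.40 ± 0.180 CPM in WT and 7.52 ± 0.240 CPM in Ogg1-/- of NeuN+ nuclei, a log2 difference of 0.23 ± 0.11 (adjusted p 0.419). The difference for Ccl21d, a member selected on such differences, was 3.43 ± 0.13 in those libraries. In NeuN- nuclei Ccl21a differed by 0.40 ± 0.22 (adjusted p 0.521).

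Ccl19, the other CCR7 ligand, was at 11.4 ± 0.141 CPM in WT and 12.4 ± 0.809 CPM in Ogg1-/- of NeuN+ (adjusted p 0.665). Ackr4, the scavenging receptor for CCL19 and CCL21, was at 13.1 ± 0.817 and 13.2 ± 0.683 CPM (adjusted p 0.969). The receptor Ccr7 itself was barely counted, with 0 in all 3 WT libraries of NeuN+ and at most 0.130 CPM in any library, and was not tested. Among 46 other chemokine and chemokine receptor genes, 20 were tested in NeuN+ and 29 in NeuN-, and edgeR called none against WT, with 1 to 5 at an unadjusted p under 0.05 in each comparison. DESeq2 called 1 of them, in DKO of NeuN+.

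Markers of the cell types known to make or follow CCL21 were read in the same libraries. The 4 lymphatic endothelial markers summed to 88.9 to 105.5 CPM in WT and 93.3 to 107.3 CPM in Ogg1-/- of NeuN+ nuclei. In NeuN- they summed to 149.6 to 166.3 and 144.3 to 152.6 CPM, so the groups overlapped. Only 2 of the 4 were tested in NeuN+, and 3 general endothelial markers summed to 1.41 to 2.26 CPM in WT there. The lymphatic sums were therefore not shown to come from lymphatic endothelium. The 4 markers of T cells and dendritic cells, Ccr7 among them, summed to 0.0149 to 0.1075 CPM in WT and 0.1152 to 0.1802 CPM in Ogg1-/- of NeuN+, without overlap but near 0, and to 1.26 to 1.46 and 1.08 to 1.34 CPM in NeuN-. Their part in the members' levels was not tested. Microglial markers summed to 77.6 to 78.5 CPM in WT and 77.9 to 80.4 CPM in Ogg1-/- of NeuN+. By edgeR, the astrocyte gene Aldh1l1 was the only marker called against WT, at 0.52 ± 0.0972 (adjusted p 0.0483) in Ogg1-/- of NeuN-, and DESeq2 called 2 astrocyte markers there and 1 in DKO. Sums of glial markers in NeuN- nuclei nevertheless lay apart between groups. The astrocyte markers summed to 743.6 to 814.8 CPM in WT, 879.3 to 983.5 CPM in Ogg1-/- and 827.2 to 930.2 CPM in DKO, both above WT without overlap. The oligodendrocyte markers summed to 5593 to 6436 CPM in WT, 4773 to 5138 CPM in Ogg1-/- and 4051 to 5311 CPM in DKO, both below WT without overlap. The part of these cell types in the members' NeuN- levels was not tested. The positions of the genes inactivated in these mice are chr6:113326972-113335068 for Ogg1 and chr4:116807723-116819440 for Mutyh, the second 74.6 Mb beyond the last member.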

How the data were processed

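RNA of sorted hippocampal nuclei was measured in 24 libraries, 12 per fraction. The authors aligned read pairs to GRCm38 with HISAT2 2.1.0 (SAMtools 1.10, FastQC 0.11.9, per the submitters' processing notes) and counted them per gene of Ensembl release 102 with featureCounts; the deposited values are these raw counts. Handling of multiply aligned pairs and strand is not given in the sources used here.

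Counts were analysed with R 4.3.3 and edgeR 4.0.16. filterByExpr left 30132 genes in NeuN+ and 31863 in NeuN-, TMM factors were used, and the 4 genotypes of a fraction were fitted together (glmQLFit, glmQLFTest, Benjamini-Hochberg over all genes tested). A fit of 24 libraries with 33523 genes gave cell-type and interaction tests. Scripts were tested on simulated data. Alternatives were DESeq2 1.42.0, RLE factors, no filter, only the compared groups, a replicate block and leaving out each library. Positions and transcripts came from GENCODE vM21 by symbol (Ccl21d as Gm21541), and promoters from RefSeq. The symbol Ccl21b stands for 3 GENCODE genes, and its chromosome 4 gene was used for position, length and windows. Its count was taken by symbol, so which of the 3 genes the count covers is not known here. The same holds for Il11ra2 (3 genes) and for Ccl21a, Ccl19 and Fam205a2 (2 genes each).

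Named were the members, up to 10 neighbours called against WT by smallest p, the 5 genes per fraction most correlated with the members (mean CPM of at least 1), a list of CCR7-axis genes and, as counts, other chemokines and cell markers. Gm10601 follows as a gene most like the members. The members and lists were chosen with earlier results of these data known.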

Additional observations from a re-analysis of the deposited data

How the results depend on the processing

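The counts of members called against WT in Mutyh-/- and Ogg1-/- stayed at 10 of 10 under DESeq2, RLE factors, no low-count filter, only the compared groups and the replicate block. In DKO against WT of NeuN+, where the main count was 0, no filter gave 3 members and 4 neighbours, the replicate block 1 member and DESeq2 2 members. For DKO against Mutyh-/-, a fit of only the compared groups gave 2 members in NeuN+ and 0 in NeuN-. Without Gm17167, the sums in Mutyh-/- and Ogg1-/- were 2.16 and 6.36 times WT in NeuN+ and 2.70 and 8.59 times in NeuN-. The near-zero fold change of Gm21093 in DKO of NeuN- changed sign, to -0.0021 without the filter and -0.001 by DESeq2. Leaving out single libraries gave 0 to 2 members and 0 to 2 neighbours in DKO against WT of NeuN+, 0 to 1 neighbour in DKO of NeuN-, 6 to 10 members and 2 to 6 neighbours in Mutyh-/- of NeuN-, 1 to 9 members for DKO against Mutyh-/- of NeuN-, and -0.0941 to 0.0992 for Gm21093 in DKO of NeuN-. The cause of these shifts was not tested.

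Replicate numbers were not treated as pairs, since no source ties them to shared animals, although per the methods sorting collected both fractions. With group means subtracted, same-number libraries of a genotype correlated between fractions at a mean r of 0.175 (0.00283 to 0.356, 12 pairs). Pairs of unlike number had a mean r of -0.0856 (-0.286 to 0.139, 24 pairs). Of the same-number pairs, 9 of 12 correlated above 0.1. As a hint from the data and not from the design, 10 of 12 NeuN+ libraries correlated best with their own number. In fits over both fractions the replicate block gave 10 members for the cell-type difference and 0 for each interaction, as without it, and it moved no other count of members or neighbours by more than 1.5 times. The block used replicate numbers shared by all genotypes and fractions. It therefore cannot represent a pairing of fractions within a genotype, and the effect of such a pairing was not tested. RNA counts do not give the number of gene copies in each animal, and reads shared among copies limit what can be said of any single gene.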
